A study of Homo sapiens with 8 samples.

Results

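Chemokines are small secreted proteins that guide migrating cells, and 10 chemokine genes linked to hepatic stellate cells (HSCs) were followed in LX-2 cells: CXCL12, CXCL16, CCL2, CCL5, CXCL8, CXCL1, CXCL2, CXCL3, CCL20 and CX3CL1. They were chosen by name, with earlier results of these data known, and were looked up by gene symbol among the 16796 genes counted. Of the 10, 8 were found and 2, CCL20 and CX3CL1, were not analysed here. LX-2 is a single immortalised human HSC line with an activated, myofibroblast-like phenotype. The control group received the DMSO vehicle and the OGTi group received 50 µM OSMI-1, a small molecule inhibitor of O-GlcNAc transferase (OGT), and both were kept for 24 h in medium with 5% serum. OGT modifies proteins inside the cell with the sugar O-GlcNAc. RNA was sequenced from 4 biological replicates per group, and the control and OGTi samples of a replicate form a pair. The comparison asked how inhibition of OGT changes gene expression in myofibroblastic HSCs (MF-HSCs), here for the chemokines they make.

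Chemokines bind receptors on the surface of target cells and are held on tissue surfaces by heparan sulfate, a sulfated sugar chain. In injured liver, MF-HSCs are a source of several of them. CXCL12 acts on CXCR4 and on the scavenging receptor ACKR3, CCL2 draws monocytes through CCR2, CCL5 draws T cells and other leukocytes, and CXCL16 is made as a membrane protein that proteases can release and that binds CXCR6. CXCL1, CXCL2, CXCL3 and CXCL8 share the neutrophil receptor CXCR2, and their transcription is a textbook response to the NF-kappaB transcription factors, which recognise kappaB motifs in promoters.

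OGTi lowered 3 of the 8 chemokines measured and the others were not called. Of all genes with an adjusted p, 46.6% were called, and 24.0% were called lower. CXCL12 fell 3.60-fold, CCL2 2.52-fold and CXCL16 1.77-fold, each in all 4 pairs. CCL5, CXCL8, CXCL1, CXCL2 and CXCL3 were not called in either direction. CXCL2 and CXCL3 were low, with a mean under 10 normalized counts over the 8 libraries.

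The promoter of the chemokine that fell furthest and those of the 4 neutrophil chemokines are shown as a description of their sequences. Of the 10 chemokines, 6 had a promoter in the RefSeq set used here (GRCh38.p14), and CXCL16, CCL2, CCL5 and CX3CL1 did not. The 120 bases directly before the RefSeq start are written 5′ to 3′ on the strand of the gene. Capitals mark the GC box GGGCGG in CXCL12, which lies on the opposite strand and so reads as its complement, and the kappaB motif GGAATTTCC in the other genes.
CXCL12: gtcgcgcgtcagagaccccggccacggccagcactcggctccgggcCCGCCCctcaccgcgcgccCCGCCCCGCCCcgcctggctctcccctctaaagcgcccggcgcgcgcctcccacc
CXCL1: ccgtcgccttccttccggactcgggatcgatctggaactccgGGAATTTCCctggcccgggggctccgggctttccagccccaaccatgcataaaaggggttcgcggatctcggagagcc
CXCL2: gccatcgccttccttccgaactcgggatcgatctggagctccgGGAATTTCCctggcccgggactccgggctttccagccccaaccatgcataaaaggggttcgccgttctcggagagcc
CXCL3: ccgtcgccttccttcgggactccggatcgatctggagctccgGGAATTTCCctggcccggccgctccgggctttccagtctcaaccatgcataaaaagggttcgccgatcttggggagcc
CXCL8: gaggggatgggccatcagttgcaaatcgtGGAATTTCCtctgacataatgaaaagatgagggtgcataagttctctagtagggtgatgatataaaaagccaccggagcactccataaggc
The windows are chr10:44385098-44385217 on the minus strand (CXCL12), chr4:73869273-73869392 on the plus strand (CXCL1), chr4:74099196-74099315 on the minus strand (CXCL2), chr4:74038690-74038809 on the minus strand (CXCL3) and chr4:73740449-73740568 on the plus strand (CXCL8). In GENCODE release 44 the genes CXCL12, CXCL2, CXCL3 and CXCL8 start further upstream, CXCL2 by 1 base, so their windows lie partly or wholly inside the longest annotated transcript span.

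Motifs were searched on both strands of the 250 bases before each start. GGAATTTCC was found 78 to 70 bases before the start of CXCL1 and of CXCL3, 77 to 69 before that of CXCL2 and 91 to 83 before that of CXCL8, and it was not found in CXCL12. It occurs in 0.413% of 35116 promoters of the same length. Other forms of the kappaB motif were not searched, so its absence from CXCL12 covers only these letters. A link between a motif and the change with OGTi was not tested. CXCL8 also held the AP-1 motif TGANTCA (137 to 131 bases before the start, in 6.57% of promoters) and the TATA box TATAAA (31 to 26 bases before, in 10.7%). The GC box GGGCGG, in 42.6% of promoters, was found at 3 places in CXCL12, of which 2 share 1 base, and once each in CXCL1 and CXCL3 at 128 to 123 bases before the start. The TEAD motif CATTCC, in 11.9% of promoters, was not found in the windows of the 5 genes shown. It was found in the promoter of CCL20, 45 to 40 bases before the start, with a TATA box 29 to 24 bases before. The sequence of CCL20 is not shown, and its expression was not analysed here. The GC content was 78.0% in CXCL12, between 62.8% and 65.6% in CXCL1, CXCL2 and CXCL3, and 37.6% in CXCL8. CXCL1 and CXCL3 were identical at 81.4% of aligned bases, CXCL2 and CXCL3 at 73.3%, and CXCL1 and CXCL2 at 70.4%, against 42.6% for CXCL1 and CXCL8 and 47.0% for CXCL12 and CXCL1. A motif match describes the sequence and does not show that a factor binds there.

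The 8 libraries held between 24166756 and 28201215 counts, and 12829 to 13180 genes reached 10 counts in a library. OGT itself was lower in all 4 pairs (mean 5636 ± 260 in control and 4146 ± 477 normalized counts in OGTi libraries, SD, n = 4), with a log2 change of -0.45 ± 0.09 (DESeq2 adjusted p = 1.48e-06). Because OSMI-1 acts on the enzyme, the transcript does not check the treatment. Of 13 stellate or myofibroblast markers, 9 had a mean of at least 100 normalized counts, among them COL1A1, VIM and SPARC, while DES, LUM, DCN and LRAT were under 10. With OGTi, DESeq2 called 7 of these 9 lower, among them COL3A1 and ACTA2, and 1, TIMP1, higher. Of 10 leukocyte markers 6 were found, and their sum without CD68 spanned 74.7 to 116 (control) and 57.1 to 121 (OGTi) normalized counts, with HLA-DRA at 0 in 2 libraries of each group. The 5 endothelial markers summed to between 75.0 and 98.6 (control) and between 19.0 and 45.7 (OGTi) normalized counts, with KDR at 0 in 2 control and 3 OGTi libraries. Of the 4 with an adjusted p, DESeq2 called 2 lower, CDH5 (adjusted p = 5.83e-07) and TEK (adjusted p = 0.0242), and 0 higher. The leukocyte marker CD68 was higher in OGTi (7687 against 3236 normalized counts). The biliary markers went both ways, with KRT7 lower (53.8 against 111) and SOX9 higher (1045 against 834, DESeq2 adjusted p = 0.00715). The part of these transcripts in the chemokine values was not tested. In RNA from whole cultures, less RNA per cell and fewer expressing cells cannot be told apart.

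CXCL12 (chr10:44370165-44386493, minus strand), a homeostatic chemokine that retains CXCR4-bearing cells, was the most abundant of the 8. Its normalized count, the count divided by the size factor of the library, was 1484, 1493, 1436 and 1332 in control replicates 1 to 4 and 430, 376, 401 and 388 in OGTi replicates 1 to 4. The lowest control library lay above the highest OGTi library by far more than the spread within either group, with coefficients of variation of 5.12% and 5.91%. The mean went from 1436 ± 73.6 to 398.7 ± 23.5 (SD, n = 4 each), which is -1.85 ± 0.10 (SE) as a log2 fold change, with a 95% interval of -2.04 to -1.65 (DESeq2 adjusted p = 4.43e-75). The log2 ratio of OGTi to control was -1.79, -1.99, -1.84 and -1.78 in pairs 1 to 4. Among the genes called lower, 4.85% fell at least as far.

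CCL2 (chr17:34255274-34257208, plus strand), the monocyte attractant also known as MCP-1, varied more between replicates. Its normalized counts were 132, 85.5, 67.8 and 72.8 in control and 55.7, 21.1, 30.8 and 37.1 in OGTi replicates 1 to 4. Replicate 1 was the highest of both groups, and the groups did not overlap. CCL2 fell from 89.6 ± 29.5 to 36.2 ± 14.6 (SD, n = 4 each), or -1.33 ± 0.31 on the log2 scale, with an interval of -1.94 to -0.73 (DESeq2 adjusted p = 7.25e-05). Within pairs the log2 ratio ran from -2.02 in replicate 2 to -0.97 in replicate 4.

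CXCL16 (chr17:4733533-4739928, minus strand) encodes the membrane-anchored ligand of CXCR6. Control replicates 1 to 4 had 123, 97.7, 121 and 109 normalized counts, and OGTi replicates had 83.2, 50.2, 71.1 and 53.1. Every control library was above every OGTi library, with replicates 1 and 3 the higher ones in both groups. The mean fell from 112.6 ± 11.6 to 64.4 ± 15.6 (SD, n = 4 each), or -0.82 ± 0.25 on the log2 scale, with an interval of -1.31 to -0.34 (DESeq2 adjusted p = 0.00293). The ends of CXCL16 overlap MED11 and ZMYND15 on the opposite strand, and the counting used strand. With replicate 4 left out the adjusted p was 0.0474, the nearest that CXCL16 came to the threshold.

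CCL5 (chr17:35871491-35880793, minus strand), the T cell attractant RANTES, had similar values in both groups. Its normalized counts were 131, 73.3, 105 and 85.3 in control replicates and 110, 66.3, 107 and 116 in OGTi replicates, with replicate 2 the lowest of both groups. Of the pairs 2 were higher and 2 lower with OGTi. The means of 98.4 ± 25.0 and 99.7 ± 22.6 (SD, n = 4 each) gave a log2 fold change of 0.02 ± 0.24 with an interval of -0.45 to 0.49 (DESeq2 adjusted p = 0.959), so changes within that interval in either direction were not resolved. CCL5 was the only one of the 8 with fractional counts, in all 8 libraries, which means that its estimate includes reads shared with other transcripts. A long non-coding RNA, ENSG00000270240, overlaps it on the opposite strand.

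**Figure D1:**
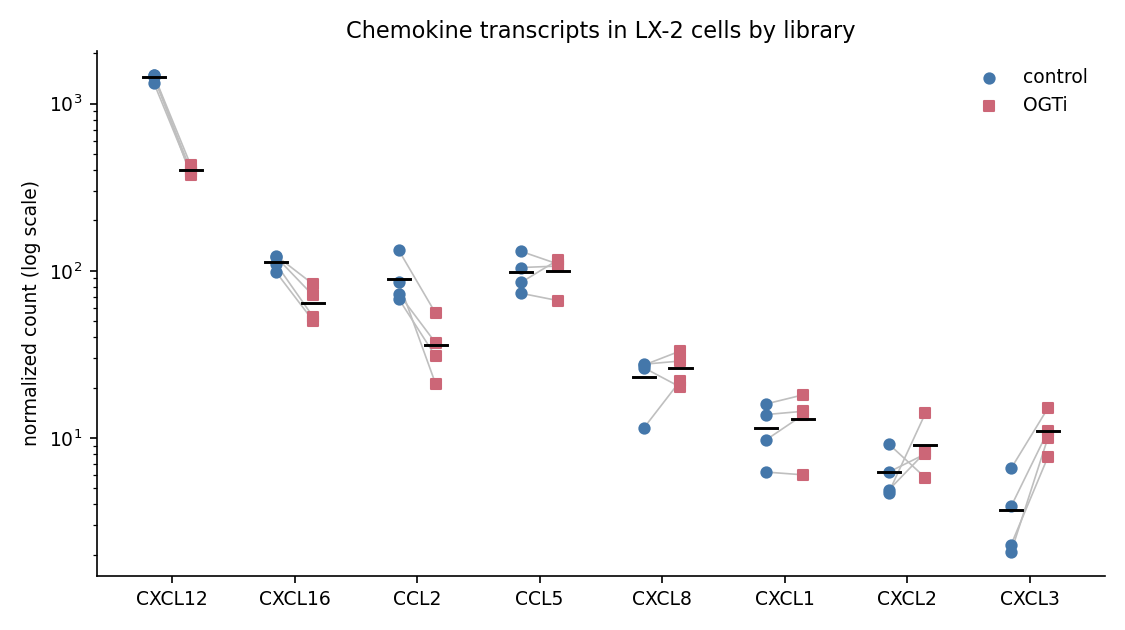
Normalized count (log scale) of each of the 8 chemokines in the 4 control libraries (circles) and the 4 OGTi libraries (squares), with grey lines joining the samples of a replicate and black bars marking group means. CXCL12, CXCL16 and CCL2 lie lower in every OGTi library, CCL5 and CXCL8 overlap, and CXCL3 lies higher at counts of 2 to 15.

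The 4 ligands of CXCR2 among the 10 chemokines lie on chromosome 4, and each had a mean of at most 26.03 normalized counts in either group. CXCL8 (chr4:73740519-73743716, plus strand), known as interleukin 8, had 26.3, 27.2, 27.6 and 11.4 normalized counts in control and 20.1, 33.1, 28.8 and 22.04 in OGTi replicates. Control replicate 4 stood below the other control libraries, and the groups overlapped. The log2 fold change of CXCL8 was 0.21 ± 0.46 (interval -0.70 to 1.12, DESeq2 adjusted p = 0.753), and without replicate 4 it was -0.0094.

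CXCL1 (chr4:73869393-73871308, plus strand) had 9.74, 16.0, 13.8 and 6.24 normalized counts in control and 13.7, 18.1, 14.4 and 6.01 in OGTi replicates. Replicate 4 was the lowest of both groups, and 3 of the 4 pairs were higher with OGTi. Its log2 fold change was 0.18 ± 0.63 (interval -1.06 to 1.42, DESeq2 adjusted p = 0.848). CXCL2 (chr4:74097040-74099196, minus strand) had 4.87, 4.70, 9.19 and 6.24 normalized counts in control and 8.22, 14.1, 5.77 and 8.01 in OGTi replicates. Here too the groups overlapped, and 1 pair, that of replicate 3, went down. Its log2 fold change of 0.51 ± 0.81 had an interval of -1.08 to 2.11 (DESeq2 adjusted p = 0.641).

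CXCL3 (chr4:74036589-74038807, minus strand) was the only chemokine of the 8 whose OGTi libraries all lay above the control libraries. The counts themselves were 4, 7, 2 and 2 in control and 12, 15, 8 and 10 in OGTi replicates, or 3.71 ± 2.07 and 10.9 ± 3.08 normalized counts (SD, n = 4 each). The log2 fold change was 1.64 ± 0.85 with an interval of -0.04 to 3.31, and it was not called (DESeq2 adjusted p = 0.105, unadjusted p = 0.0551). Over the 10 alternative settings the adjusted p of CXCL3 ranged from 0.0510 to 0.293. At these counts a change was not resolved.

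CXCL1, CXCL2 and CXCL3 are paralogs, and their canonical transcripts share some stretches of 50 bases. CXCL1 shared 60 of its 1125 such stretches (5.33%) with CXCL2 and 6 (0.533%) with CXCL3, and CXCL2 shared 54 of 1066 (5.07%) with CXCL3. None of the 3 had a fractional count in any library. Counted as a single gene, they had a log2 fold change of 0.62 ± 0.44 (DESeq2 adjusted p = 0.245). The 3 together were not called under any setting run for the sum. Together with CXCL8 they summed to 44.5 ± 13.1 (control) and 59.0 ± 14.9 (OGTi) normalized counts (SD, n = 4), from 25 to 58 counts per control library and 46 to 80 per OGTi library, and the sum was higher in 4 of 4 pairs, with no test of this sum.

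DESeq2 called 3 of the 8 chemokines, against 46.6% of all 14028 genes with an adjusted p. The 3 were all lower, where 24.0% of all genes were called lower. No chemokine of the 8 was called higher (0 of 8, against 22.7% of all genes). At an unadjusted p under 0.05 DESeq2 also gave 0 higher, while DESeq2 without the replicate block and edgeR each gave 1. For CXCL3 the adjusted p was 0.0630 with DESeq2 without the block and 0.0639 with edgeR. The libraries of the groups did not overlap for 4 of the 8, CXCL12, CXCL16, CCL2 and CXCL3, against 38.0% of all 14895 genes fitted. With 8 genes these counts were near the shares of all genes, and nothing particular to chemokines is read from them. The median log2 fold change of the 8 was 0.10, and that of all genes was 0.00.

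**Figure D2:**
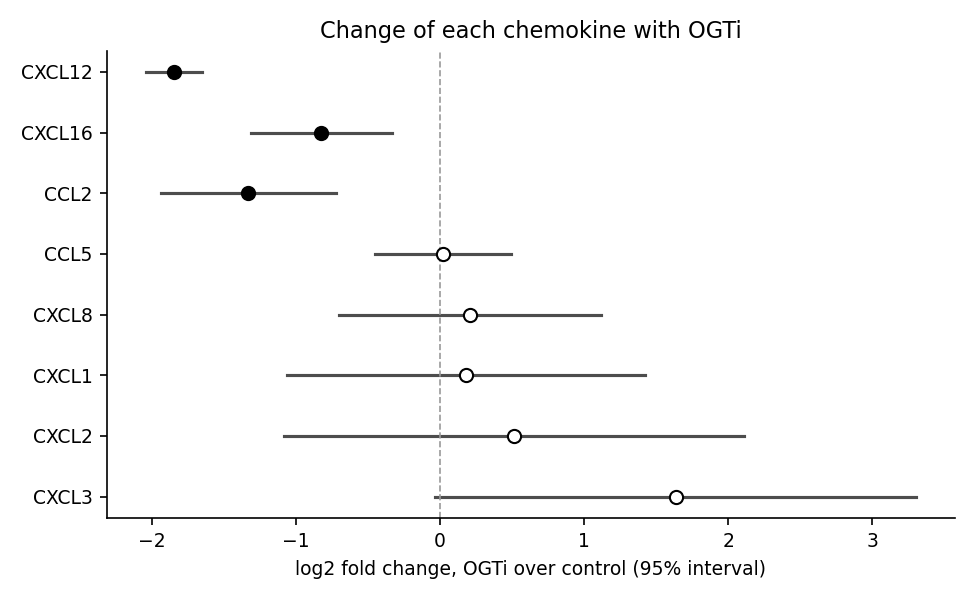
Log2 ratio of OGTi to control for the 8 chemokines, with 95% intervals from DESeq2, where filled circles are genes called at an adjusted p of 0.05 or lower and open circles are not called. The narrowest interval is that of CXCL12 (-2.04 to -1.65) and the widest that of CXCL3 (-0.04 to 3.31), the gene with the fewest counts.

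Levels were compared between genes per kilobase (kb) of the canonical transcript. In control cells CXCL12 stood at 745 ± 38.2 normalized counts per kb, CCL2 at 121 ± 39.8, CCL5 at 75.8 ± 19.2 and CXCL16 at 48.4 ± 5.0 (SD, n = 4). CXCL8, CXCL1, CXCL2 and CXCL3 followed at 14.1, 9.74, 5.61 and 3.45 normalized counts per kb. The ranges of the libraries did not overlap between CXCL12 and CCL2, between CCL5 and CXCL16, and between CXCL16 and CXCL8, while the other neighbours in this order overlapped. Before length was considered, the control mean of CXCL12 was above that of 71.1% of the genes fitted and that of CXCL3 above 7.09%.

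In OGTi cells CXCL12 was still first, at 206.8 ± 12.2 normalized counts per kb, and CCL5 was next at 76.8 ± 17.4, followed by CCL2 at 48.8 ± 19.7 and CXCL16 at 27.7 ± 6.7. CCL5 and CCL2 exchanged places, but their ranges overlapped in both groups. Only CXCL12 and CCL5, and CXCL16 and CXCL8, were neighbours without overlap. The sum of the 8 per-length levels was 1023 ± 87.2 in control and 405 ± 42.0 in OGTi cells. CXCL12 made up 73.0% ± 3.5 of that sum in control and 51.2% ± 2.5 in OGTi cells, while CCL5, with similar mean levels in both, made up 7.36% ± 1.44 and 18.8% ± 3.49. The share of CCL2 was 11.7% in control and 11.8% in OGTi cells.

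**Figure D3:**
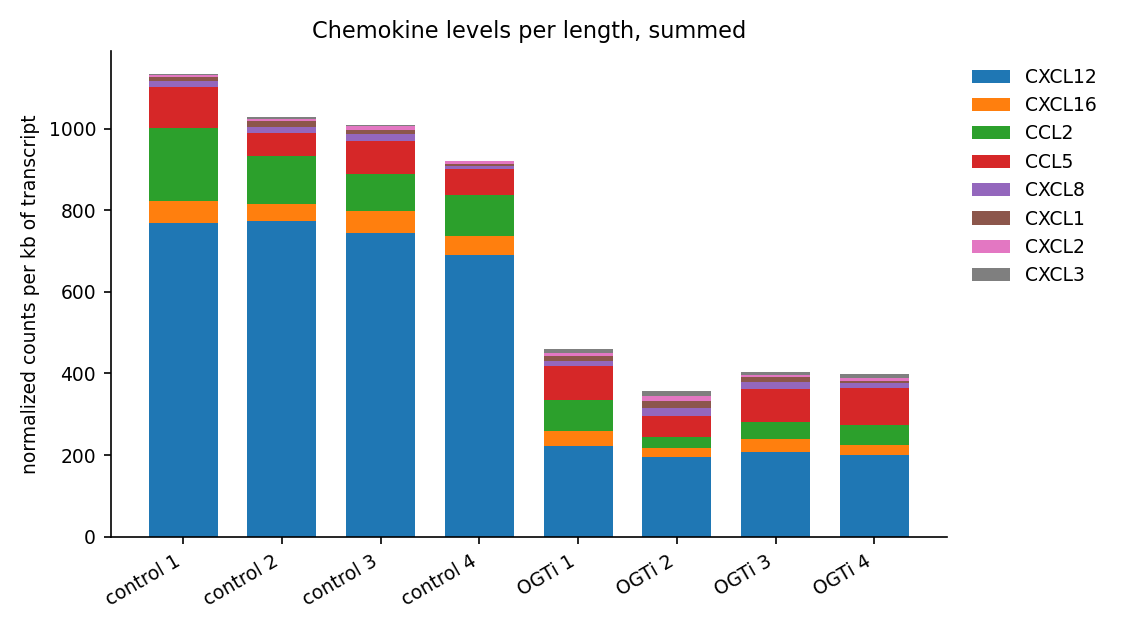
Stacked bars of normalized counts per kb of canonical transcript for the 8 chemokines in each of the 8 libraries. The control bars reach 922 to 1134 and the OGTi bars 358 to 460, and CXCL12, the lowest segment, accounts for most of the height in control.

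The chemokines outside the 10 were found at low counts. Of 38 further ligands, 14 were found, 13 of them with a mean under 10 normalized counts, and 3 had an adjusted p. CCL26 (eotaxin-3) was the most abundant, with 22.6 ± 6.6 (control) and 16.3 ± 5.7 (OGTi) normalized counts (log2 fold change -0.49 ± 0.55, DESeq2 adjusted p = 0.490). It falls outside the rule for named genes and was chosen after its values were seen. DESeq2 called 1 ligand higher, CCL25, a thymus and gut chemokine, and 0 lower (0 also at an unadjusted p under 0.05 with DESeq2 or edgeR). CCL25 had 0, 0, 0 and 3 counts in control and 4, 2, 12 and 12 in OGTi replicates (DESeq2 adjusted p = 0.0244). The ratio of its summed counts, scaled by the summed size factors of each group, was 9.50, with an exact 95% interval for counting error of 2.95 to 48.7. The groups overlapped, and CCL25 was not called when any 1 replicate was left out.

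Receptors were sparse as well. Of 23 chemokine receptors 16 were found, 13 with a mean under 10 normalized counts, and DESeq2 called 1 lower, 2 higher and 3 in neither direction among the 6 with an adjusted p, a share near the 46.6% of all genes. CXCR4, the signalling receptor of CXCL12, had 2 counts over all 8 libraries. CXCR1 had 2 and CXCR2 had 1, so the receptors of CXCL8 were barely detected.

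ACKR3, which binds and removes CXCL12, was the most abundant receptor and fell with OGTi. Its normalized counts were 504, 655, 646 and 699 in control and 57.6, 98.4, 154 and 159 in OGTi replicates 1 to 4. Replicate 1 was the lowest of both groups, and the groups were far apart. The mean fell from 625.8 ± 84.7 to 117 ± 48.4 (SD, n = 4 each), or -2.49 ± 0.18 on the log2 scale (DESeq2 adjusted p = 2.72e-43). The log2 change of its ligand CXCL12 was -1.85, and whether the changes differed was not tested.

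CCRL2, a surface protein that presents chemerin and does not itself signal, rose from 17.0 ± 3.7 to 68.2 ± 10.9 normalized counts (SD, n = 4), a log2 change of 2.01 ± 0.37 (DESeq2 adjusted p = 5.24e-07). CCR10, the receptor of CCL27 and CCL28, rose from 44.9 ± 6.2 to 100.7 ± 3.7, a log2 change of 1.17 ± 0.27 (DESeq2 adjusted p = 8.93e-05). Each was higher in 4 of 4 pairs, with no overlap between the groups.

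**Figure D4:**
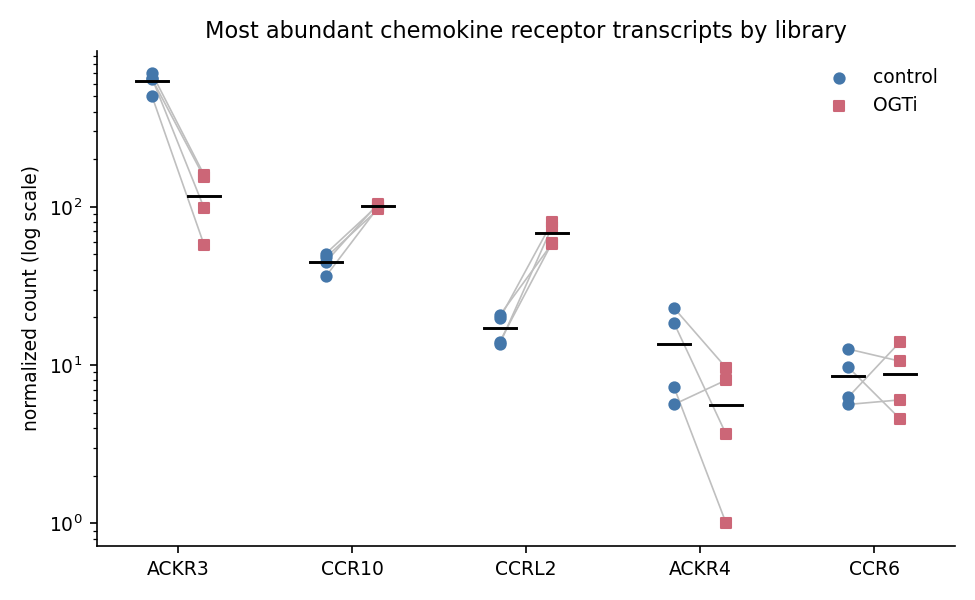
Normalized count (log scale) of the 5 most abundant chemokine receptors in the 4 control libraries (circles) and the 4 OGTi libraries (squares), with lines joining the samples of a replicate and bars marking group means. ACKR3 is lower and CCR10 and CCRL2 are higher in every OGTi library, while ACKR4 and CCR6 overlap.

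Among 14 genes that hold or cut chemokines at the cell surface, DESeq2 called 7 lower and 4 higher, with 2 not called and 1, the peptidase gene DPP4, without an adjusted p. Thus 11 of the 13 with an adjusted p were called, where 46.6% of all genes were. The list was chosen with earlier results of these data known, and the share among genes with similar counts was not computed. Nothing particular to chemokine handling is therefore read from this share. The median log2 fold change of the 14 was -0.29. NDST1, which starts the sulfation of heparan sulfate, fell from 6223 ± 577 to 2354 ± 217 normalized counts (SD, n = 4), a log2 change of -1.40 ± 0.07 (DESeq2 adjusted p = 8.95e-86). EXT1, which polymerises the heparan sulfate chain, fell by 0.77 ± 0.07 on the log2 scale (DESeq2 adjusted p = 1.06e-27). EXT2, of the same family and chosen after its values were seen, was not called (log2 fold change 0.10 ± 0.08, DESeq2 adjusted p = 0.332). The core proteins that carry these chains went both ways. Of the syndecans, SDC1 and SDC2 rose by 0.50 ± 0.09 and 0.31 ± 0.09 on the log2 scale and SDC4 fell by 0.32 ± 0.08 (DESeq2 adjusted p = 9.13e-08, 0.00125 and 2.98e-04), and they were chosen after their values were seen. SDC3 fell by 1.20 ± 0.08 (adjusted p = 6.68e-54) and GPC1 by 0.67 ± 0.08 (adjusted p = 1.70e-15) on the log2 scale with DESeq2. The sulfotransferase gene HS2ST1 rose by 0.52 ± 0.09 (DESeq2 adjusted p = 5.72e-08). The proteases that release CXCL16 also changed in opposite directions, and they were chosen after their values were seen. ADAM10 fell by 0.28 ± 0.08 and ADAM17 rose by 0.44 ± 0.10 on the log2 scale (DESeq2 adjusted p = 0.00227 and 1.06e-04).

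Of 25 genes of NF-kappaB signalling and of the decay of chemokine messenger RNAs, DESeq2 called 6 lower and 3 higher and 16 in neither direction, with a median log2 fold change of 0.00. The 9 called of 25 were no larger a share than the 46.6% of all genes. The NF-kappaB subunits RELA and NFKB1, chosen after their values were seen, were not called (log2 fold changes of -0.11 and -0.09, DESeq2 adjusted p = 0.207 and 0.483). NFKBIE, an inhibitor of NF-kappaB, rose from 396.8 ± 34.5 to 821 ± 99.8 normalized counts (SD, n = 4), a log2 change of 1.05 ± 0.11 (DESeq2 adjusted p = 4.49e-20). The inhibitor NFKBIA, chosen after its values were seen, went the other way, from 1783 ± 148 to 1470 ± 171 normalized counts. Its log2 change was -0.28 ± 0.09 (DESeq2 adjusted p = 0.00665). BCL3, a nuclear cofactor of the same inhibitor family, fell by 1.47 ± 0.16 on the log2 scale (DESeq2 adjusted p = 9.67e-18). Among the proteins that bind AU-rich messenger RNAs, ZFP36 (tristetraprolin) rose by 0.87 ± 0.12 on the log2 scale (DESeq2 adjusted p = 1.35e-12). HNRNPD (AUF1) fell by 1.02 ± 0.08 (adjusted p = 3.58e-38) and ELAVL1 (HuR) fell by 0.38 ± 0.08 on the log2 scale (adjusted p = 5.81e-06 with DESeq2). KHSRP, chosen after its values were seen, fell by 0.20 ± 0.07 (DESeq2 adjusted p = 0.00793). The count of genes called lower was 3 without replicate 2 and 3 without replicate 4.

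**Figure D5:**
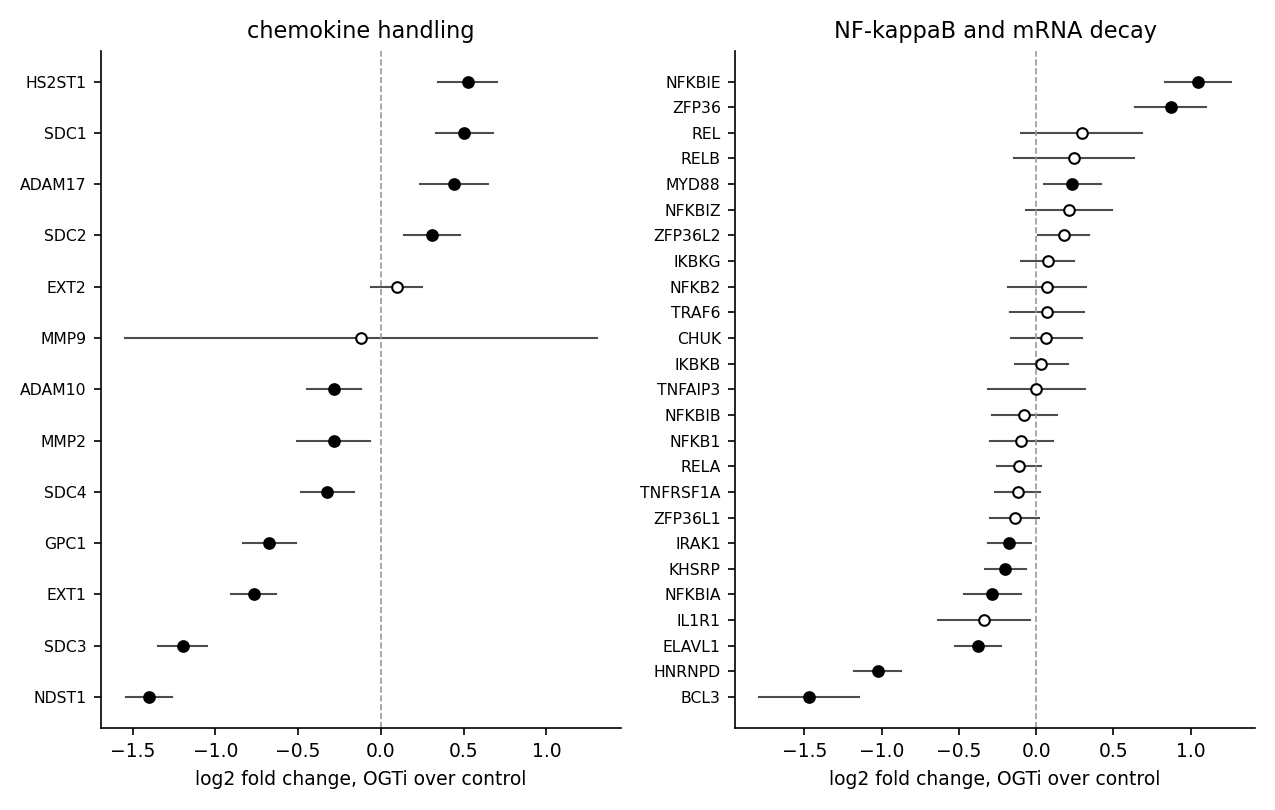
Log2 ratio of OGTi to control with 95% intervals from DESeq2 for the 13 genes of chemokine handling with an adjusted p (left) and the 25 genes of NF-kappaB signalling and messenger RNA decay (right), where filled circles are genes called at an adjusted p of 0.05 or lower and open circles are not called. NDST1 and BCL3 lie furthest to the left, at -1.40 and -1.47.

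The genes most like CXCL12, CCL5 and CXCL16, the 3 chemokines with the highest mean normalized count before length was considered, were found by the Pearson correlation of log2 normalized counts over the 8 libraries, among 10941 genes with a mean of at least 100. For CXCL12 they were UBE2Q2 (r = 0.997), NLGN2 (r = 0.996) and ADAMTS5 (r = 0.996), and of these ADAMTS5, an aggrecanase, went from 1945 to 206 normalized counts. For CXCL16 they were ITPRIPL1 (r = 0.991), ZFAT (r = 0.984) and GLYCTK (r = 0.981). CCL5, which did not follow the treatment, was most like PARP15 (r = 0.957), BPHL (r = 0.920) and NDRG3 (r = 0.907). The libraries share the division into groups, so these coefficients are descriptions without a test.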

How the data were processed

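Polyadenylated RNA from LX-2 cells (4 control and 4 OGTi samples) was sequenced with a strand-specific protocol. The authors aligned reads to hg38 with Bowtie2 2.3.5.1 and deposited expected counts per gene from RSEM 1.3.1, in which a read with several alignments is shared between genes. Their comparison table from DESeq2 1.36.0 (means, log2 fold changes and p-values) was not used. Expected counts were rounded, genes with under 10 counts in total were left out, and 14895 genes were compared with the Wald test of DESeq2 1.42.0 in R 4.3.3. Replicate number was a block, as in the study's methods. Genes were called at a Benjamini-Hochberg adjusted p of 0.05 or lower over all genes. The script was tested on simulated data.

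Libraries of a replicate number deviated together from their group means (Pearson r of 0.372, 0.391, 0.165 and 0.327 for replicates 1 to 4). These coefficients run across 10994 genes, which are not independent replicates. Control replicate 3, however, was nearer to OGTi replicate 4 (0.343), and OGTi replicate 3 was nearer to control replicate 4 (0.255). The pairing of replicates 3 and 4 is thus less clear from the data. Libraries of a group differed by more than counting error (chi-square divided by its degrees of freedom, 8.66 to 36.2). Intervals from counts cover counting error only. Positions and lengths came from GENCODE release 44, motif counts and figures from Python 3.11.15, Biopython 1.88 and matplotlib 3.10.9. The alternatives were edgeR 4.0.16, fits without the block, TMM factors, no filter, counts cut down to whole numbers, and leaving out each replicate.

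The chemokines and gene lists were chosen with earlier results of these data known. Named were all 10 chemokines, OGT, any called ligand or receptor, up to 5 called genes per list by smallest adjusted p expressed at 100 normalized counts or more on average, and the 3 genes most correlated with each of the 3 most abundant chemokines.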

Additional observations from a re-analysis of the deposited data

Results flagged for a closer look

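Each group of 4 libraries was checked for a sample far from the rest, by the gap to its nearest neighbour as a share of the range of the group (Dixon's test at 95%). Of 46 groups, covering 23 genes, 2 passed, and chance gives about 1 in 20, or 2.3 of 46. CXCL8 in control replicate 4 had 11.4 normalized counts against 26.3 to 27.6 in the other control libraries, a gap of 0.921 of the range. CCL25 in control replicate 4 had 3.12 normalized counts, which is 3 counts, against 0 in the other control libraries, a gap of the whole range. With the other libraries tied at 0, any count would have passed, so the rate given for chance does not apply to this group.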

How the results depend on the processing

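Over the 10 alternatives, 78 of 80 log2 fold changes of chemokines kept their direction and their side of the threshold. The 2 that turned, neither of them called, were CXCL8 (-0.0094) and CCL5 (-0.12) without replicate 4. Leaving out 1 replicate gave -0.0094 to 0.41 for CXCL8 and -0.12 to 0.12 for CCL5. DESeq2 and edgeR called 3 chemokines lower and 0 higher under every alternative. In the paired fit 24.0% of all genes were called lower and 22.7% higher. CXCL12 ranged from -1.87 to -1.80 and CCL2 from -1.45 to -1.12 (adjusted p up to 0.00739). CXCL16 ranged from -0.92 to -0.76 (adjusted p up to 0.0474). Without the replicate block, the log2 fold changes with DESeq2 were -1.31 for CCL2 and -0.80 for CXCL16, and the calls over all genes were 3207 lower and 3100 higher (3360 and 3181 in the paired fit), and the block changed no call of a chemokine. Leaving out 1 replicate gave between 2670 and 2967 genes called lower and between 2416 and 2723 called higher.

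Among 138 values of other named genes, 136 kept direction and call. CCL25 lost its call without replicate 1 (adjusted p of 0.0716) and without replicate 2 (0.0524), and it had no adjusted p without replicate 3 or 4, so the count of other ligands called higher went from 1 to 0 in each case. The count of NF-kappaB and decay genes called lower went from 6 to between 3 and 7 when 1 replicate was left out. The causes were not tested. CXCL1, CXCL2 and CXCL3 have few counts, and their intervals span more than 2 log2 units.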
